A study of Mus musculus with 9 samples.

Results

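The genes of the subunits of RNA polymerases I, II and III (Pol I, Pol II and Pol III) were followed across 9 RNA sequencing libraries of K7M2, a mouse osteosarcoma cell line. They were chosen by name, as every gene called Polr1, Polr2 or Polr3 with a single letter between a and m after it and, optionally, a final l. This gave 28 of the 55401 genes in the table. By the complex they belong to, 3 were specific to Pol I, 2 were shared by Pol I and Pol III, 8 were specific to Pol II, 5 were shared by all 3 polymerases and 10 were specific to Pol III. Grouping by complex matters because the letters do not follow it: the 5 subunits common to all 3 enzymes carry Polr2 names. All 28 passed the filter on low values, an FPKM (fragments per kilobase of exon, scaled to the mapped fragments of the library) of at least 1 in at least 3 libraries, as did 11826 genes in all.

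Wild-type K7M2 cells grown in DMEM with fetal bovine serum made up all 3 groups, with 3 libraries in each. They were treated with (A/R) mouse platelets, treated with mouse platelets, or left untreated. The labels do not say what A/R means. The titles give 24 h for every library, whereas the treatment labels give 27, 28 and 29 h with (A/R) platelets and 24, 25 and 26 h with platelets, so that A/R and the labelled hours cannot be told apart. The labels do not say whether libraries of a group came from separate cultures, and the p-values then measure only how much these libraries vary, which may be technical. In RNA from whole cultures, fewer cells of a type and less RNA per cell cannot be told apart.

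RNA polymerases copy DNA into RNA, and animal nuclei divide the work among these enzymes. Pol I makes the large ribosomal RNA precursor in the nucleolus, Pol II makes messenger RNAs and many small nuclear RNAs, and Pol III makes transfer RNAs, the 5S ribosomal RNA and other short RNAs. Each enzyme has a catalytic core built from its 2 largest subunits, an assembly platform and small subunits common to all. Each also has a stalk near the point where the new RNA leaves. Pol I and Pol III have, besides, extra built-in subunits that start or end transcription.

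Library totals ranged from 37465049 to 61366030 deposited counts, of which the 28 genes held 0.236% to 0.249%. The fewest counts of any member in a library were the 142 of Polr3gl. Of 9 osteoblast-lineage markers, Col1a1, Col1a2, Sparc, Spp1 and Runx2 were detected in every library, whereas Alpl and Ibsp, which mark mineralizing osteoblasts, were listed at 0 throughout and Sp7 did not exceed 8 counts. The summed FPKM of this list was 493 to 503 in (A/R) platelet libraries, 564 to 592 in platelet libraries and 589 to 618 in untreated libraries. The 12 platelet markers summed to 1.71 to 2.44 FPKM in (A/R) platelet, 2.85 to 3.55 in platelet and 3.05 to 4.37 in untreated libraries, with Tubb1, Treml1, Clec1b and Gp6 at 0. Most of this sum came from Ppbp, at 1.19 to 2.06 FPKM in (A/R) platelet, 2.56 to 2.79 in platelet and 2.70 to 3.58 in untreated libraries. Gp5, at no more than 16 counts, was found in every library of both treated groups and was at 0 in the untreated ones. The 8 leukocyte markers summed to 312 to 336 FPKM in (A/R) platelet, 405 to 439 in platelet and 427 to 451 in untreated libraries, nearly all of it from Csf1r. Cd68 at 2.56 to 4.45 FPKM, Cd79a at 19 to 43 counts and Lyz2 at 9 to 347 counts were also found in every library. Cd3e and S100a8 were at 0, Ptprc stayed at or below 12 counts and S100a9 at or below 8. The 6 erythroid markers summed to 1.33 to 2.06 FPKM in (A/R) platelet, 1.52 to 2.70 in platelet and 0.838 to 1.97 in untreated libraries. The part of these shifts in the results below was not tested.

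In (A/R) platelet libraries against untreated ones, the called genes specific to Pol I or Pol III were higher, apart from Polr3k. Of the called genes specific to Pol II, Polr2a, Polr2b and Polr2d were lower and Polr2c was higher. Polr3d and Polr3e, which form a Pol III subcomplex, were the only members at least 2-fold higher. Polr1b, the second-largest subunit of Pol I, came next. With a threshold of 0.05 on the adjusted p of edgeR's quasi-likelihood test, 14 of the 28 members were called (50.0%), 9 higher and 5 lower, against 38.8% of all genes tested, 19.3% higher and 19.5% lower. The members' share called therefore stood not far above that of all genes. Their median log2 fold change was 0.11, beside 0.00 over all genes tested, and 1.51% of all genes were called and at least 2-fold higher. The FPKM of 15 members did not overlap between the groups (9 higher and 6 lower), as for 51.1% of all genes, 21.4% higher and 29.8% lower.

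By complex, 2 of 3 Pol I-specific genes rose and none fell, with a median log2 fold change of 0.50. The shares of all genes tested, for this and the counts that follow, were 19.3% higher and 19.5% lower. Of the 10 Pol III-specific genes, 5 rose and 1 fell, with a median of 0.24. Of the 8 Pol II-specific genes, 1 rose and 3 fell, and their median was -0.11. That last median rests on single libraries, since it was -0.22 without untreated replicate 1 and 0.02 without untreated replicate 2. Among the 5 genes shared by all 3 enzymes, 1 rose and 1 fell, with a median of 0.20, and neither of the 2 genes shared by Pol I and Pol III was called. The difference between these groups of genes was not tested. Their members were chosen by name and grouped by complex, but with earlier results of these data known.

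**Figure D1:**
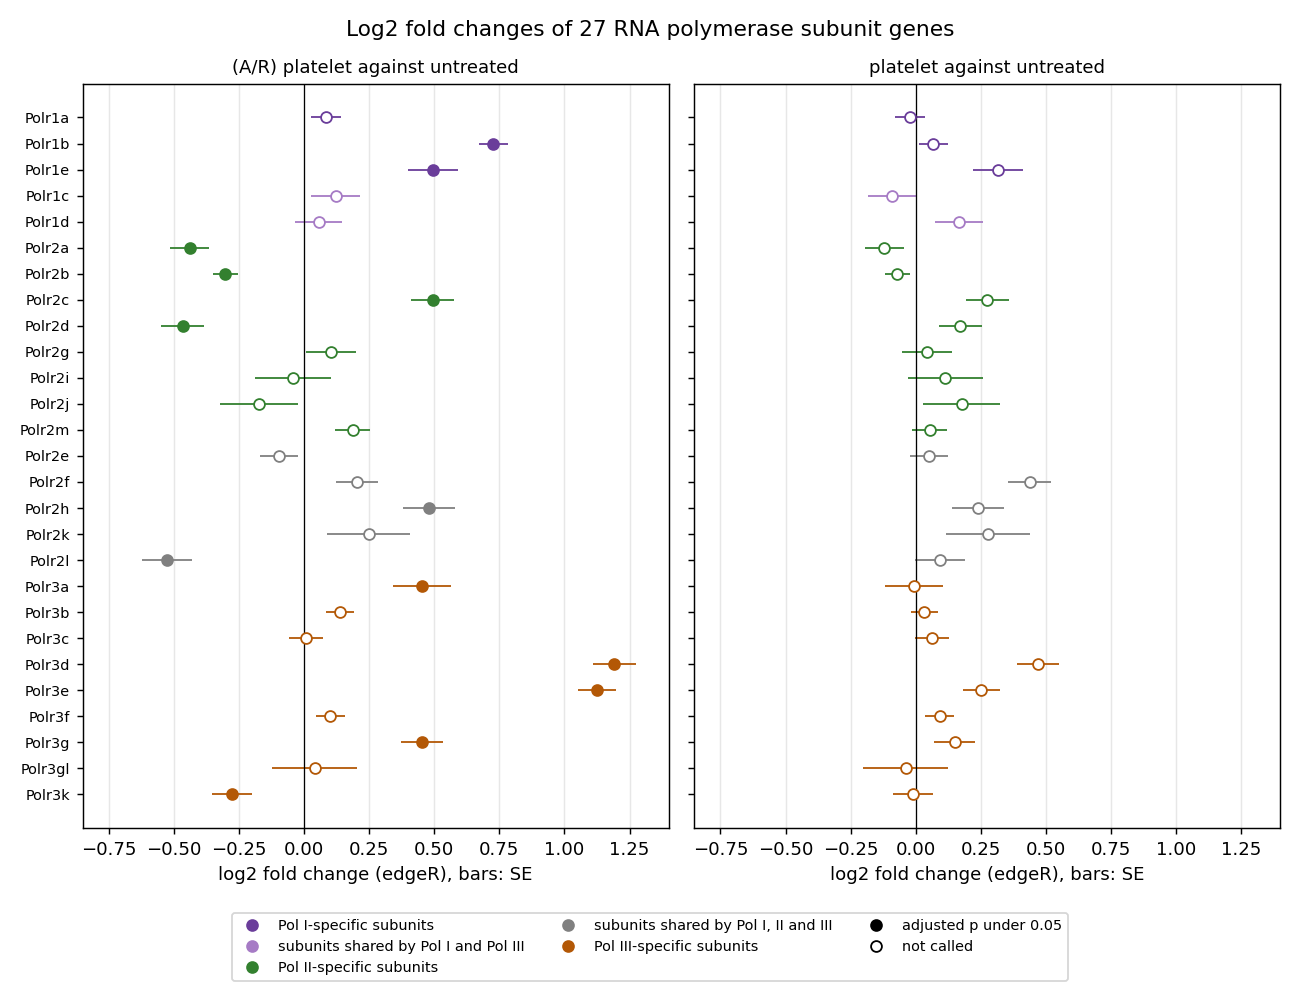
Log2 fold changes of 27 subunit genes, coloured by complex, for (A/R) platelet against untreated on the left and platelet against untreated on the right. Points are edgeR estimates with bars of 1 SE, filled where the adjusted p was under 0.05. On the left 13 points are filled, led by Polr3d at 1.19 and Polr3e at 1.13, and on the right none is.

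Against untreated cells, platelets without A/R left the subunit genes uncalled. None of the 28 passed edgeR's quasi-likelihood test, where 0.262% of all genes did (31 of 11826), 25 higher (0.211%) and 6 lower (0.0507%). At an unadjusted p under 0.05, 7 of the 28 members and 1524 of all 11826 genes tested were found. The members' share was the larger there, a difference that was not tested. The largest differences were those of Polr3d (log2 fold change 0.47, SE 0.08, adjusted p = 0.0784) and Polr2f (0.44, SE 0.08, adjusted p = 0.0885), and DESeq2's Wald test called these 2 and no other member. The values of 7 of the 28 members did not overlap between platelet and untreated libraries (6 higher and 1 lower), beside 19.3% of all genes, 8.16% higher and 11.2% lower.

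In (A/R) platelet against platelet libraries, edgeR's quasi-likelihood test called 10 of 28 members (35.7%), 5 higher and 5 lower, against 34.3% of all genes, 17.1% in each direction. The members' share was thus that of the background. The FPKM of 13 members did not overlap (6 higher and 7 lower), as for 48.9% of all genes, 21.3% higher and 27.6% lower. Polr1b, Polr3a, Polr3d, Polr3e and Polr3g were higher, and Polr2a, Polr2b, Polr2d, Polr2l and Polr3k were lower. The comparisons share libraries, so their values are given side by side below and not as independent evidence.

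Within Pol I, the largest subunit and its partner differed. Polr1a, which holds most of the active site, had 16.9, 17.9 and 17.1 FPKM in (A/R) platelet libraries, 15.8, 16.4 and 17.2 in platelet libraries, and 17.7, 15.7 and 17.4 in untreated libraries. The 3 groups overlapped, and Polr1a was not called against untreated (log2 fold change 0.09, SE 0.06, edgeR adjusted p = 0.278). Polr1b, which completes the catalytic core, had 14.4, 14.7 and 14.4 FPKM in (A/R) platelet, 9.19, 10.0 and 9.02 in platelet, and 9.36, 8.78 and 9.07 in untreated libraries. All 3 (A/R) platelet libraries stood well above the other 6, which overlapped each other. Polr1b rose 1.66-fold against untreated (log2 0.73, SE 0.06, edgeR adjusted p = 1.73e-05) and 1.58-fold against platelet (log2 0.66, SE 0.06, adjusted p = 3.79e-05).

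Polr1e, part of a heterodimer that helps Pol I start and elongate, had 10.4, 8.68 and 8.73 FPKM in (A/R) platelet, 7.85, 8.52 and 8.80 in platelet, and 6.32, 7.48 and 6.62 in untreated libraries. Both treated groups stood above all untreated libraries, while they overlapped each other. Polr1e rose against untreated (log2 0.50, SE 0.10, edgeR adjusted p = 0.00339) but was not called in platelet against untreated (0.31, SE 0.10, adjusted p = 0.265) or in (A/R) platelet against platelet (0.18, SE 0.10, adjusted p = 0.182). Other subunits of Pol I carry names outside the rule. Its stalk gene Twistnb rose against untreated (log2 0.64, SE 0.09, adjusted p = 0.000466), with 11.4, 14.3 and 13.7 FPKM in (A/R) platelet and 9.27, 8.44 and 8.60 FPKM in untreated libraries. Cd3eap, the partner of Polr1e, also rose (0.34, SE 0.09, adjusted p = 0.0146). It had 14.6, 14.2 and 14.8 FPKM in (A/R) platelet, 14.2, 13.4 and 15.1 in platelet, and 10.6, 13.3 and 11.9 in untreated libraries. Znrd1, a small RNA-cleaving subunit, was not called (0.13, SE 0.13, adjusted p = 0.494). It had 44.3, 35.7 and 50.6 FPKM in platelet and 33.7, 35.6 and 31.4 in untreated libraries. For both genes every platelet library stood above every untreated one, narrowly and without a call in that comparison.

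Polr1c and Polr1d, the scaffold genes that Pol I shares with Pol III, were not called in any comparison. Polr1c averaged 31.5 ± 2.7 FPKM in (A/R) platelet, 27.8 ± 2.2 in platelet and 29.9 ± 3.1 in untreated libraries (SD, n = 3 each). Polr1d averaged 29.6 ± 1.5 FPKM in (A/R) platelet, 32.7 ± 2.7 in platelet and 29.5 ± 3.6 in untreated libraries (SD, n = 3 each).

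The catalytic core of Pol II was lower in (A/R) platelet libraries. Polr2a, the largest subunit, whose C-terminal repeats carry the phosphorylation marks of the transcription cycle, had 49.8, 50.0 and 44.9 FPKM in (A/R) platelet, 57.4, 66.5 and 60.9 in platelet, and 72.9, 63.3 and 66.8 in untreated libraries. No (A/R) platelet library reached any other library. Polr2a fell by 0.44 on the log2 scale against untreated (SE 0.08, edgeR adjusted p = 0.00169) and by 0.32 against platelet (SE 0.08, adjusted p = 0.0104). Polr2b, the second-largest subunit, had 28.9, 30.8 and 31.1 FPKM in (A/R) platelet, 35.8, 36.1 and 37.4 in platelet, and 37.5, 37.6 and 40.9 in untreated libraries. The 3 groups did not overlap, although platelet against untreated was not called (log2 -0.07, SE 0.05, adjusted p = 0.56). Polr2b fell by 0.30 against untreated (SE 0.05, edgeR adjusted p = 0.00114) and by 0.23 against platelet (SE 0.05, adjusted p = 0.00555). Its exons share 1.82% of their bases with Igfbp7 on the opposite strand, a gene at 88.3 FPKM, and the use of strand in counting is not given in the sources used here.

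The promoter of Polr2a is shown because this gene has the highest FPKM of the 3 largest subunits and its window holds a TATAAA motif. It spans chr11:69758634-69758883 on the minus strand (GRCm38.p6, RefSeq) and is written 5′ to 3′ along the gene, with the TATAAA in capitals, 33 bases before the start site.
Polr2a promoter: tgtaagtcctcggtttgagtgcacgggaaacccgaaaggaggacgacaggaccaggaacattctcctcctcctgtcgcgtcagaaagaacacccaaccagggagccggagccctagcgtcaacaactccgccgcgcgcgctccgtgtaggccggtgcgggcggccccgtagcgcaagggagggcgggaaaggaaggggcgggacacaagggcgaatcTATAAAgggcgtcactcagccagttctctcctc
TATAAA was searched on both strands in windows of 250 bases before to 50 bases after RefSeq gene starts. Of the 24 windows that matched 22 of the 28 members, 8.33% held it, those of Polr2a and Polr2c, against 13.6% of all 32851 windows. Those windows were not limited to genes that passed the filter on low values, whereas every member passed it, so the sets are unlike.

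The stalk genes of Pol II went apart. Polr2d had 38.9, 37.3 and 40.1 FPKM in (A/R) platelet, 64.1, 65.8 and 55.8 in platelet, and 54.4, 60.5 and 51.5 in untreated libraries, so that the (A/R) platelet libraries lay below all others and the other groups overlapped. Polr2d fell by 0.47 against untreated on the log2 scale (SE 0.08, edgeR adjusted p = 0.00194) and by 0.64 against platelet (SE 0.08, adjusted p = 0.000406), the largest fall of any member in that comparison. Its stalk partner Polr2g averaged 40.2 ± 1.5 FPKM in (A/R) platelet, 39.5 ± 3.7 in platelet and 38.8 ± 4.5 in untreated libraries (SD, n = 3 each) and was not called in any comparison.

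Polr2c, a scaffold subunit, was the only Pol II-specific gene that rose. It had 9.37, 10.5 and 8.94 FPKM in (A/R) platelet, 8.96, 7.98 and 8.43 in platelet, and 7.49, 6.92 and 6.76 in untreated libraries. Both treated groups stood above all untreated libraries, with a log2 fold change of 0.49 in (A/R) platelet against untreated (SE 0.08, edgeR adjusted p = 0.00139) and 0.27 in platelet against untreated, which was not called (SE 0.08, adjusted p = 0.248). The exons of Polr2c share 18.1% of their bases with Dok4 on the opposite strand, which had a mean of 1.37 FPKM.

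The remaining Pol II-specific genes were not called in any comparison. The scaffold gene Polr2j had 32.9, 31.7 and 32.7 FPKM in (A/R) platelet, 44.3, 41.9 and 41.0 in platelet, and 28.2, 46.7 and 38.7 in untreated libraries, which spanned both treated groups. Its (A/R) platelet libraries lay below all platelet libraries, without a call (log2 -0.35, SE 0.15, edgeR adjusted p = 0.102). Without untreated replicate 1, the lowest of these, Polr2j was called lower in (A/R) platelet against untreated (edgeR adjusted p = 0.0205). The exons of Polr2j share 15.9% of their bases with Lrwd1 on the opposite strand, a gene with up to 2644 counts in a library. Polr2i, a subunit for transcript cleavage and fidelity, averaged 10.5 ± 1.4 FPKM in (A/R) platelet, 12.0 ± 1.9 in platelet and 11.2 ± 1.1 in untreated libraries (SD, n = 3 each). Of its exon bases, 26.8% are shared with Tbcb on the opposite strand, at 34.2 FPKM. Polr2m, a protein bound to a fraction of Pol II that makes it depend on Mediator, had the highest FPKM of all 28 genes in every group, 122 ± 2.2 in (A/R) platelet, 114 ± 6.3 in platelet and 111 ± 9.8 in untreated libraries (SD, n = 3 each). It missed the threshold against untreated (log2 0.19, SE 0.07, edgeR adjusted p = 0.0552) and was called higher by DESeq2 and, with edgeR, without untreated replicate 1.

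The 5 subunits common to all 3 polymerases did not move together. Polr2l, a small zinc-binding subunit needed for assembly, had 14.4, 13.3 and 14.8 FPKM in (A/R) platelet, 20.3, 21.8 and 24.7 in platelet, and 21.8, 22.6 and 18.9 in untreated libraries. All 3 (A/R) platelet libraries were below the other 6, which overlapped. Polr2l fell by 0.53 on the log2 scale against untreated (SE 0.10, edgeR adjusted p = 0.00254), the largest fall of any member there, and by 0.62 against platelet (SE 0.10, adjusted p = 0.00123).

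Polr2h had 37.2, 31.5 and 37.1 FPKM in (A/R) platelet, 33.8, 29.8 and 28.3 in platelet, and 26.0, 24.1 and 28.5 in untreated libraries. The (A/R) platelet libraries were above the untreated ones, with the platelet libraries overlapping both. Polr2h rose against untreated (log2 0.48, SE 0.10, edgeR adjusted p = 0.00447). For Polr2f the highest values were those of the platelet libraries, with 12.0, 10.7 and 11.6 FPKM in (A/R) platelet, 12.6, 14.1 and 14.7 in platelet, and 9.58, 10.8 and 10.5 in untreated libraries. It was not called in any comparison, although it came near the threshold in (A/R) platelet against platelet (log2 -0.23, SE 0.08, edgeR adjusted p = 0.0545). Polr2e averaged 42.7 ± 2.2 FPKM in (A/R) platelet, 48.4 ± 4.8 in platelet and 47.3 ± 1.6 in untreated libraries, and Polr2k 41.4 ± 5.9 in (A/R) platelet, 43.3 ± 6.4 in platelet and 36.1 ± 6.5 in untreated libraries (SD, n = 3 each), without a call.

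Of the Pol III core, the largest subunit rose. Polr3a had 6.68, 7.75 and 7.73 FPKM in (A/R) platelet, 4.84, 5.91 and 5.77 in platelet, and 6.29, 5.29 and 5.17 in untreated libraries. The lowest (A/R) platelet library was just above the highest untreated one. Polr3a rose 1.37-fold against untreated (log2 0.45, SE 0.11, edgeR adjusted p = 0.0108) and 1.38-fold against platelet (log2 0.46, SE 0.11, adjusted p = 0.0111). Polr3b, the second-largest subunit, averaged 12.1 ± 0.17 FPKM in (A/R) platelet, 11.5 ± 0.35 in platelet and 11.3 ± 0.55 in untreated libraries (SD, n = 3 each) and was not called (log2 0.14, SE 0.05, adjusted p = 0.0627 against untreated).

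Polr3d and Polr3e encode the partners of a heterodimer within Pol III that takes part in initiation, termination and reinitiation and resembles the Pol II factor TFIIF. Polr3d had 13.6, 13.3 and 13.2 FPKM in (A/R) platelet, 8.62, 7.66 and 8.66 in platelet, and 5.50, 6.37 and 6.31 in untreated libraries. The 3 groups did not overlap. Polr3d rose 2.29-fold against untreated (log2 1.19, SE 0.08, edgeR adjusted p = 9.70e-06) and 1.65-fold against platelet (log2 0.72, SE 0.08, adjusted p = 0.000189), and stood 159th from the highest log2 fold change of 11826 genes against untreated.

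Polr3e had 10.1, 10.8 and 10.0 FPKM in (A/R) platelet, 5.60, 5.91 and 5.81 in platelet, and 4.73, 5.31 and 4.65 in untreated libraries. Its groups did not overlap either. Polr3e rose 2.18-fold against untreated (log2 1.13, SE 0.07, edgeR adjusted p = 6.18e-06) and 1.83-fold against platelet (log2 0.87, SE 0.07, adjusted p = 3.31e-05), where it had the largest rise of any member. In platelet against untreated its log2 fold change was 0.25 (SE 0.07, adjusted p = 0.237).

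**Figure D2:**
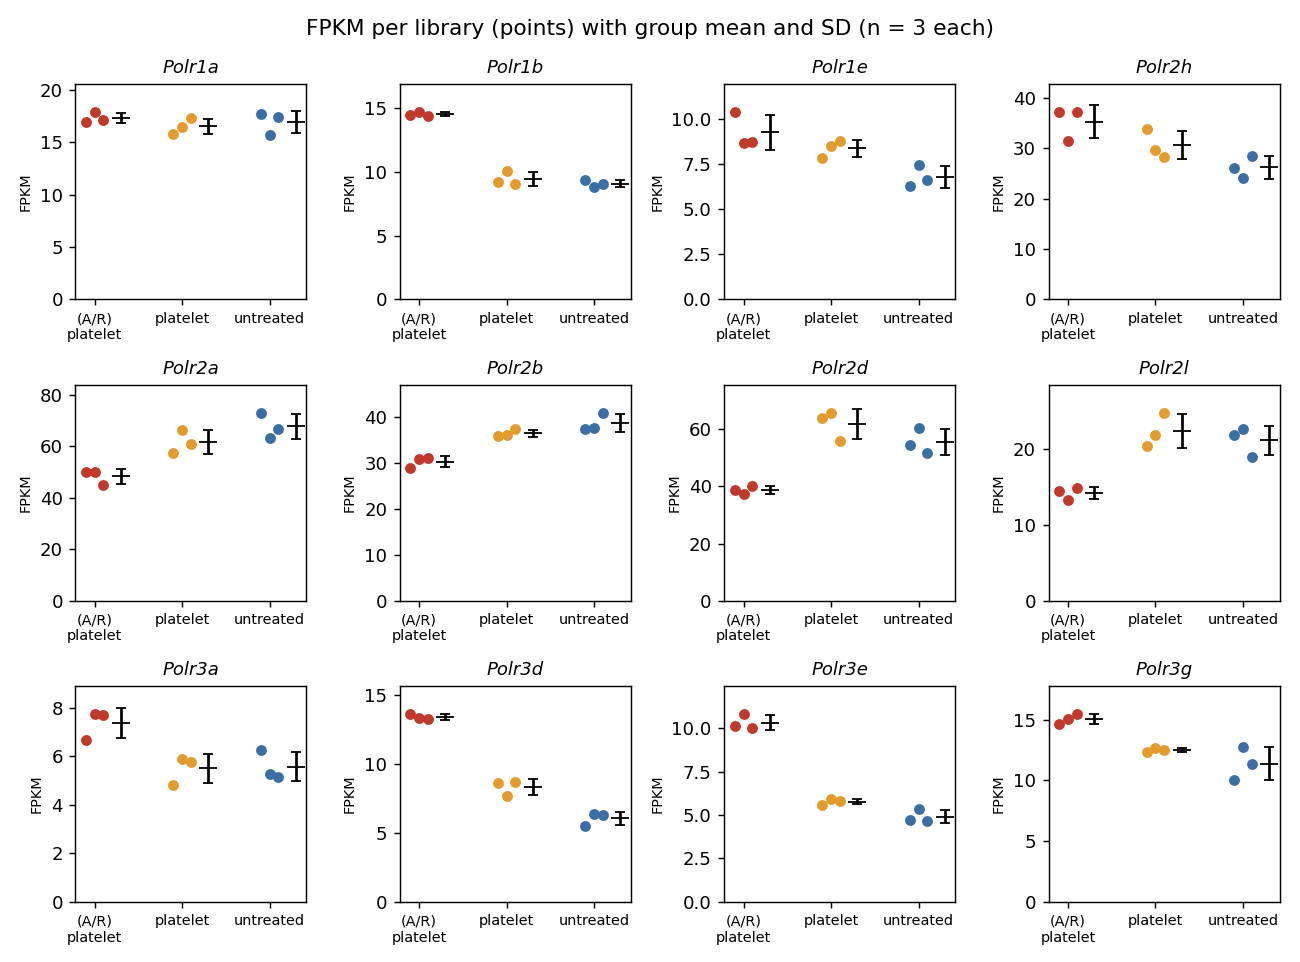
FPKM of 12 subunit genes in each library (points), with the mean and SD of the 3 libraries of a group beside them. For Polr1b, Polr3d and Polr3e every (A/R) platelet point lies above all others, for Polr2a, Polr2b, Polr2d and Polr2l every one lies below, and for Polr1a the groups overlap.

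The start of Polr3e is shown because it was the member with the smallest p and because a gene that Pol III itself transcribes lies in front of it. The window is chr7:120917528-120917788 on the plus strand (GRCm38.p6, RefSeq), 250 bases before the start site and 11 bases after it. The first capitals mark the 71 bases of the leucine transfer RNA gene n-TLaag4 (chr7:120917517-120917598) that fall in the window, and the last capitals an E-box, CACGTG, a motif bound by Myc, MITF and TFE factors.
Polr3e promoter: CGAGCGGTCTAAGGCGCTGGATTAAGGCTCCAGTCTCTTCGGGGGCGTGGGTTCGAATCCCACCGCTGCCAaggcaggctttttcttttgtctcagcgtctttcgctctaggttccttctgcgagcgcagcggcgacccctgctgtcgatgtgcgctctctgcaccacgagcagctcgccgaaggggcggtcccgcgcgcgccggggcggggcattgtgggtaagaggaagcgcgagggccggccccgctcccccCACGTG
The transfer RNA gene ends 180 bases before the start site of Polr3e, and the E-box begins 5 bases after it. Of all 32851 promoter windows, 10 (0.0304%) overlapped an annotated transfer RNA gene, and of the 24 windows of members this one did. An E-box was in 4 of the 24 member windows (16.7%), those of Polr2h, Polr3c, Polr3e and Polr3gl, against 7.15% of all windows. Of these 4 genes, Polr2h and Polr3e were called higher against untreated and Polr3c and Polr3gl were not called. In that comparison 9 of all 28 members and 19.3% of all genes tested were called higher. Windows for Polr3d and Polr3a are not among those read here. The composite element of ATF4 and C/EBP factors (TGATGNAA, both strands) was in the window of 1 member, Polr2m, and in 3.97% of all windows. For each of these shares, all windows include genes not held to the filter that every member passed.

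The initiation trimer of Pol III contains Polr3c, Polr3f and either Polr3g or Polr3gl. Polr3g is the form abundant in embryonic stem cells and many tumour cells, and Polr3gl the one used in most adult tissues. Polr3g had 14.6, 15.0 and 15.4 FPKM in (A/R) platelet, 12.4, 12.6 and 12.5 in platelet, and 10.0, 12.8 and 11.3 in untreated libraries. The (A/R) platelet libraries were above all others, while untreated replicate 2 exceeded every platelet library. Polr3g rose against untreated (log2 0.45, SE 0.08, edgeR adjusted p = 0.00198) and against platelet (0.30, SE 0.08, adjusted p = 0.0166).

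Polr3gl had the lowest FPKM of all 28 genes in each group, with 1.92, 2.48 and 2.43 in (A/R) platelet, 2.34, 2.32 and 1.95 in platelet, and 2.24, 2.49 and 2.12 in untreated libraries. It was not called in any comparison. The ratio of Polr3g to Polr3gl FPKM was 7.64, 6.07 and 6.36 in (A/R) platelet, 5.29, 5.46 and 6.40 in platelet, and 4.48, 5.12 and 5.34 in untreated libraries. Polr3g thus exceeded Polr3gl in every library. The ratio was higher in all 3 (A/R) platelet than in all 3 untreated libraries, by 0.42 on the log2 scale, with p = 0.1 in a two-sided exact permutation test, the smallest that 3 against 3 libraries allow. It differed by 0.20 between platelet and untreated libraries (exact p = 0.2) and by 0.23 between (A/R) platelet and platelet libraries (exact p = 0.3). Per base of the longest coding transcript the ratio averaged 7.65 in (A/R) platelet, 6.54 in platelet and 5.70 in untreated libraries. The promoter of Polr3g is shown as that of the form that rose (chr13:81711014-81711263, minus strand, GRCm38.p6, RefSeq), 5′ to 3′ along the gene, with capitals on an ETS-type motif, CCGGAAG on the opposite strand.
Polr3g promoter: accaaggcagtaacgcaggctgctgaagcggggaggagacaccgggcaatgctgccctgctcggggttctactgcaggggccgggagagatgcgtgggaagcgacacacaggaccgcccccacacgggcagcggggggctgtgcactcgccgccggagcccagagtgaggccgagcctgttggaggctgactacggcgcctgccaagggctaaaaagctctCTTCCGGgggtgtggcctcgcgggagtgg
CCGGAAG was found on either strand in 7 of the 24 member windows (29.2%), against 8.86% of all windows. They belonged to Polr1c, Polr1e, Polr2c, Polr2f, Polr2j, Polr3b and Polr3g, of which Polr1e, Polr2c and Polr3g were called higher against untreated and none was called lower. Among all 28 members 9 were called higher and 5 lower, and among all genes tested 19.3% were higher and 19.5% lower. A link between motif and calls was not tested, and 6 members had no window. The share of all windows again covers genes not held to the filter that every member passed, so it is not a like background.

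Polr3c and Polr3f, the fixed members of the trimer, averaged 17.0 ± 0.97 and 4.87 ± 0.09 FPKM in (A/R) platelet, 18.1 ± 0.95 and 4.96 ± 0.18 in platelet, and 17.5 ± 0.81 and 4.71 ± 0.15 in untreated libraries (SD, n = 3 each), and were not called.

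Crcp, a stalk subunit of Pol III, has a name outside the rule and was not called (log2 -0.25, SE 0.12, edgeR adjusted p = 0.13 against untreated). Polr3k, which serves RNA cleavage and termination, had 16.1, 14.5 and 15.9 FPKM in (A/R) platelet, 20.8, 19.2 and 17.3 in platelet, and 19.8, 19.9 and 18.6 in untreated libraries. The (A/R) platelet libraries were the lowest. Polr3k fell by 0.28 on the log2 scale against untreated (SE 0.08, edgeR adjusted p = 0.0188) and by 0.27 against platelet (SE 0.08, adjusted p = 0.0249). The first call was lost without (A/R) platelet replicate 2 or untreated replicate 1 or 2 (adjusted p up to 0.066), and the second without (A/R) platelet replicate 2 or 3 or platelet replicate 1 or 2 (up to 0.0889).

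**Figure D3:**
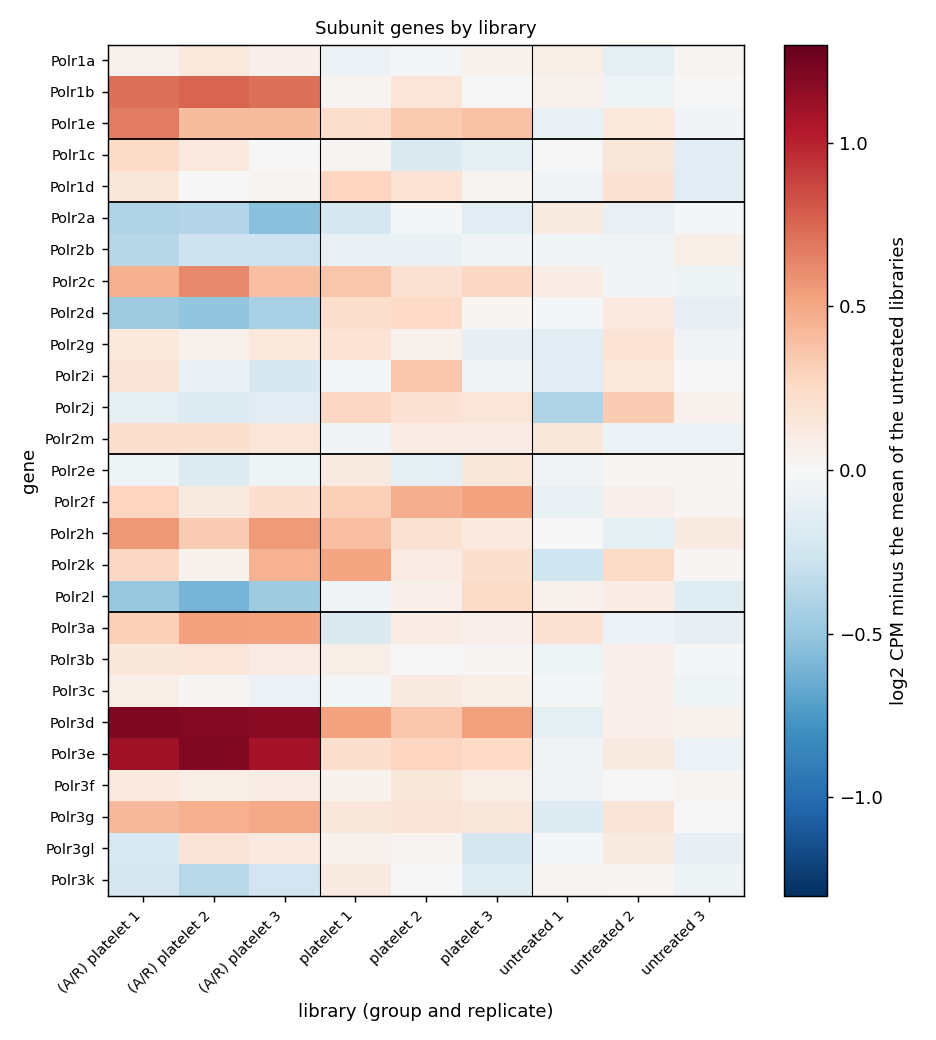
Log2 CPM (counts scaled to the TMM-adjusted library total) of 27 subunit genes in each library, minus the mean of the 3 untreated libraries, with lines between complexes and between groups. Red marks values above that mean and blue below; the (A/R) platelet columns are darkest red for Polr3d (1.17 to 1.21) and Polr3e (1.08 to 1.20) and blue for Polr2a, Polr2b, Polr2d, Polr2l and Polr3k.

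The comparison of the 3 enzymes was carried to the level of their catalytic subunits by ratios within a library, which no scaling between libraries can alter. Polr2a over Polr1a was 2.94, 2.79 and 2.63 in (A/R) platelet, 3.64, 4.05 and 3.53 in platelet, and 4.13, 4.04 and 3.84 in untreated libraries. Polr2a over Polr3a was 7.46, 6.45 and 5.82 in (A/R) platelet, 11.9, 11.2 and 10.6 in platelet, and 11.6, 12.0 and 12.9 in untreated libraries. In each ratio the (A/R) platelet libraries were below all other libraries, and the platelet and untreated libraries overlapped.

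For the second-largest subunits, Polr2b over Polr1b averaged 2.09 ± 0.08 in (A/R) platelet, 3.88 ± 0.27 in platelet and 4.27 ± 0.25 in untreated libraries, and Polr2b over Polr3b 2.51 ± 0.12 in (A/R) platelet, 3.17 ± 0.14 in platelet and 3.41 ± 0.25 in untreated libraries (SD, n = 3 each). The FPKM of both catalytic Pol II genes thus exceeded that of their Pol I and Pol III counterparts in every library, by the least in (A/R) platelet libraries. No test is given for these ratios, since they are built from members already tested, and 3 against 3 libraries cannot give an exact permutation p under 0.1. The size of a ratio between genes depends on the length that FPKM divides by, here all annotated exons of a gene together: per base of the longest coding transcript, Polr2a over Polr1a averaged 2.27 in (A/R) platelet, 3.04 in platelet and 3.26 in untreated libraries.

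**Figure D4:**
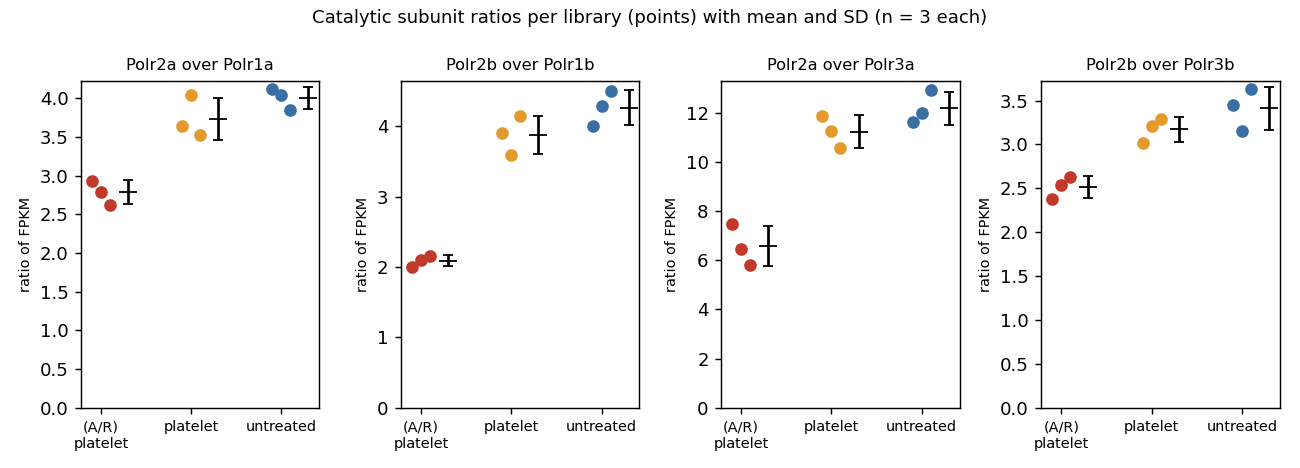
Ratios of FPKM between the catalytic subunits of Pol II and those of Pol I or Pol III in each library (points), with the mean and SD of 3 libraries beside them, on axes that start at 0. In all 4 panels the (A/R) platelet points lie below all platelet and untreated points, with Polr2b over Polr1b averaging 2.09 in (A/R) platelet and 4.27 in untreated libraries.

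The factors that work with each polymerase were taken from lists of known members. Of 11 tested Pol I factors, 7 rose and 1 fell in (A/R) platelet against untreated, with a median log2 fold change of 0.25. Those named have the smallest p of their list. Rrn3, which makes Pol I competent to initiate, had 60.5, 60.5 and 61.9 FPKM in (A/R) platelet and 45.7, 42.7 and 44.9 in untreated libraries (log2 0.51, SE 0.04, edgeR adjusted p = 1.70e-05). Tcof1, the treacle protein of the nucleolus, rose by 0.72 (SE 0.06, adjusted p = 1.92e-05). Cavin1, known both as a Pol I release factor and as a coat protein of caveolae, fell by 0.74 (SE 0.04, adjusted p = 4.77e-06).

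Of 18 Pol III factors, 2 rose and 6 fell, with a median of -0.11, the opposite sign to that of the Pol III-specific subunits. Gtf3c1, the largest subunit of TFIIIC, which binds the internal promoters of transfer RNA genes, had 7.91, 8.42 and 8.07 FPKM in (A/R) platelet and 11.8, 10.3 and 11.0 in untreated libraries. It fell by 0.39 (SE 0.07, edgeR adjusted p = 0.00231), and Gtf3c2, another TFIIIC subunit, by 0.29 (SE 0.07, adjusted p = 0.00877). Snapc1, of the complex that recruits polymerase to small nuclear RNA genes, rose by 0.35 (SE 0.07, adjusted p = 0.00251). Maf1, a repressor of Pol III named here after its values were seen, fell by 0.32 (SE 0.09, adjusted p = 0.0168).

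Of 18 general factors of Pol II, 6 rose and 1 fell, with a median of 0.16. Gtf2h1 and Cdk7 of TFIIH rose by 0.61 (SE 0.05, edgeR adjusted p = 4.18e-05) and 0.34 (SE 0.07, adjusted p = 0.00512), and Gtf2a1 of TFIIA by 0.29 (SE 0.06, adjusted p = 0.00417). Cdk7 had 13.5, 14.6 and 14.2 FPKM in (A/R) platelet, 15.0, 13.2 and 14.5 in platelet, and 10.8, 12.2 and 11.6 in untreated libraries. Its values in both treated groups thus stood above all untreated libraries and overlapped each other. For Gtf2h1 and Gtf2a1 only the (A/R) platelet libraries stood above all others. Of 21 elongation and termination factors, 3 rose and 3 fell, with a median of -0.04. Hexim1, the inhibitor of the elongation kinase P-TEFb, had 14.1, 13.5 and 13.0 FPKM in (A/R) platelet and 23.4, 22.5 and 23.4 in untreated libraries, a fall of 0.72 (SE 0.05, adjusted p = 8.53e-06). Tcea1, which rescues stalled Pol II, rose by 0.59 (SE 0.05, adjusted p = 3.09e-05), and the exonuclease Xrn2 by 0.29 (SE 0.05, adjusted p = 0.00139).

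Of 16 tested factors that assemble polymerases or carry them into the nucleus, 8 rose and 1 fell, with a median of 0.22. Ruvbl2 and Ruvbl1, ATPases of the R2TP co-chaperone, rose by 0.59 (SE 0.06, edgeR adjusted p = 8.78e-05) and 0.30 (SE 0.04, adjusted p = 0.000603), and Uri1, of the associated prefoldin-like complex, by 0.45 (SE 0.06, adjusted p = 0.000395). The shares called were 72.7% for the Pol I factors, 44.4% for the Pol III factors, 38.9% for the Pol II general factors, 28.6% for the elongation and termination factors and 56.2% for the assembly factors, beside 38.8% of all genes. In platelet against untreated no gene of these lists was called by edgeR, and at an unadjusted p under 0.05 there were, beside 1524 of all 11826 genes, 1 Pol I factor, 0 Pol III factors, 2 Pol II general factors, 1 elongation and termination factor and 2 assembly factors. In (A/R) platelet against platelet, where 34.3% of all genes were called (17.1% in each direction), 8 Pol I factors were called higher and 1 lower, 2 Pol III factors higher and 4 lower, 3 Pol II general factors in each direction, 4 elongation and termination factors in each direction, and 5 assembly factors higher and 1 lower. The shares called were 81.8% of the Pol I factors, 33.3% of both the Pol III and the Pol II general factors, 38.1% of the elongation and termination factors and 37.5% of the assembly factors.

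**Figure D5:**
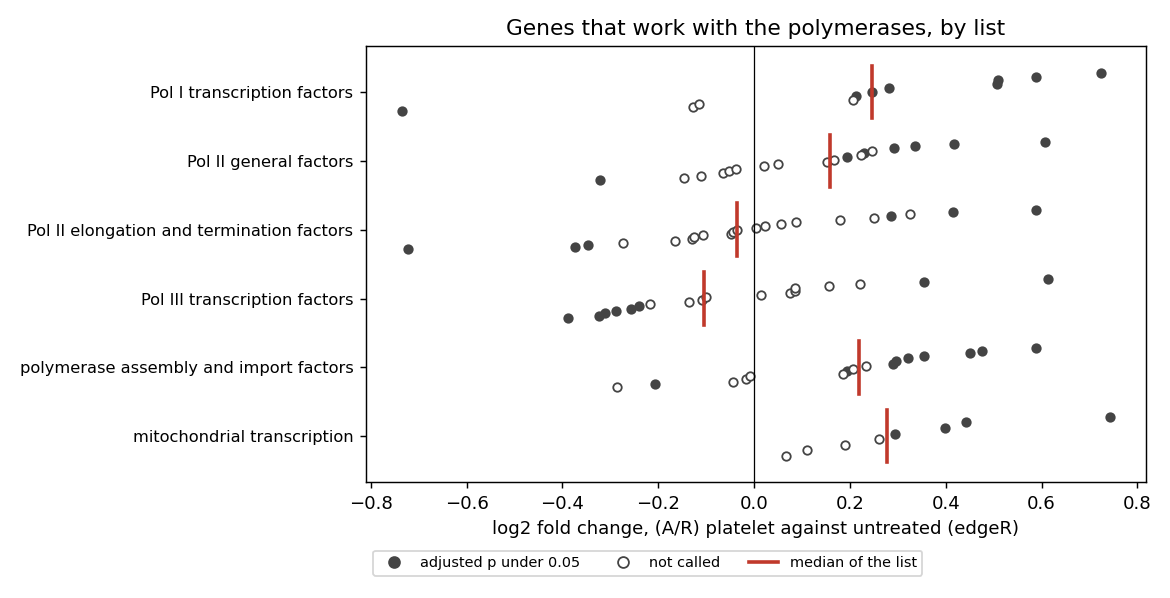
Log2 fold changes in (A/R) platelet against untreated of the factors that work with the polymerases, by list (points, filled where the edgeR adjusted p was under 0.05), with the median of each list as a red line. Medians run between -0.11 for the Pol III factors and 0.28 for mitochondrial transcription, beside 0.00 over all genes tested.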

How the data were processed

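Gene expression was measured in 9 K7M2 libraries, prepared with an mRNA-Seq kit per the labels' protocols and held in 1 table of the series. The authors deposited FPKM and counts for 55401 genes on GRCm38, the build in the submitters' processing notes. Which aligner and counter were used, and whether by strand, is not given in the sources used here. Per the file headers each library has an FPKM and a count column. As the values show, the deposited counts behave as estimated counts: they were whole, but genes piled up at 4 counts (898 to 1116 genes a library, against 286 to 342 at 3 counts), so that a count may not be 1 fragment. The FPKM of the authors divides by the union of annotated exons, which matched GENCODE M21 within 1% for 28 of 28 members.

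Genes with FPKM of at least 1 in at least 3 libraries (11826) were fitted in edgeR 4.0.16 under R 4.3.3, with TMM scaling, all 9 libraries in 1 quasi-likelihood fit and no covariates. Calls were made at a Benjamini-Hochberg adjusted p under 0.05 over all genes tested. The SE of a log2 fold change is its size over the root of the F statistic. Members and gene lists were chosen with earlier results of these data known. Of the members 27 are described singly and 1 is not reported here beyond the counts; of each list of factors up to 3 genes with the smallest p are named, to which Maf1, Polrmt, Rn7sk and Znrd1 were added after their values were seen. Alternatives used DESeq2 1.42.0 and limma 3.58.1. Promoters and transfer RNA genes are those of RefSeq; no protein sequences were used here.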

Additional observations from a re-analysis of the deposited data

How the results depend on the processing

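Member calls, counts of calls and medians by complex were recomputed under 20 alternatives (19 for Polr3f and Polr3gl), and the Polr3g to Polr3gl ratio under 7; the lists of factors, the mitochondrial genes and the Pol III transcripts were not. The alternatives were other scalings, DESeq2, limma on log2(FPKM + 1) or log2(FPKM + 0.1), other FPKM filters, counts divided by 4, a replicate block, only the 6 libraries compared, and each library left out. No member call changed sign in them. Of the 14 members called in (A/R) platelet against untreated, 12 were called in all 20 and Polr3k was lost in 4; of the 10 in (A/R) platelet against platelet, all but Polr3k (lost in 5). Gains there included Polr2f in 7 alternatives and Polr2j in 4. In platelet against untreated, 31 genes were called by edgeR, against 222 (139 higher, 83 lower) by DESeq2, 18 with only the 6 libraries compared and 18 to 26 with 1 library left out, fewest without platelet replicate 3. DESeq2 called 2 members there, and no other alternative any. The median of Pol II-specific genes against untreated ranged between -0.2161 and 0.0191 with 1 library left out. That of Pol III-specific genes was 0.17 with limma on log2(FPKM + 1) and 0.38 at an FPKM of at least 5, which drops Polr3f and Polr3gl. The cause was not tested for the other shifts. Ratios were recomputed per base of the longest coding transcript, an alternative chosen after seeing the data.

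Replicate numbers are shared between groups, but deviations of same-numbered libraries from their group means correlated by only -0.03 to 0.05, so the numbers do not pair them. With the replicate block, edgeR called 4171 genes in (A/R) platelet against untreated, 3725 in (A/R) platelet against platelet and 0 in platelet against untreated; the 14 and 10 member calls were kept. With 3 libraries a group, single fold changes of members carried SEs of 0.05 to 0.16, and Polr3gl, with 142 to 272 counts a library, was among the least precise.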

Other observations

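Mitochondria have an RNA polymerase of their own, a single-subunit enzyme encoded by Polrmt. Polrmt was not called in (A/R) platelet against untreated (log2 fold change 0.07, SE 0.11, edgeR adjusted p = 0.694), with 10.3, 9.96 and 9.23 FPKM in (A/R) platelet and 11.0, 10.3 and 7.87 FPKM in untreated libraries. Of the 8 mitochondrial transcription genes tested, 4 rose and none fell, with a median of 0.28. This was 50.0% called, beside 38.8% of all genes, of which 19.3% were higher and 19.5% lower. Tefm, the elongation factor, had 4.73, 5.14 and 4.75 FPKM in (A/R) platelet, 4.49, 4.32 and 4.33 in platelet, and 3.18, 2.88 and 2.95 in untreated libraries, so that both treated groups were above the untreated one. It rose by 0.74 against untreated (SE 0.11, adjusted p = 0.00065). Tfb2m, which melts the promoter, rose by 0.40 (SE 0.06, adjusted p = 0.000959), and Tfam, which packages mitochondrial DNA, by 0.29 (SE 0.08, adjusted p = 0.0226).

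Few products of Pol III were measured in these libraries, which were made with an mRNA kit. Of 9 rows, 5 passed the filter. Of these, 3 were called higher in (A/R) platelet against untreated and none lower, beside 19.3% of all genes higher and 19.5% lower. The share of these rows is not read as a result. Rn7s1 and Rn7s2 count the same reads, and Rpph1 passed the filter only through its (A/R) platelet libraries. Rn7s1 and Rn7s2, near-identical 7SL genes whose reads cannot be told apart, were both called. Rn7s1 had 281, 587 and 607 counts in (A/R) platelet and 285, 357 and 180 in untreated libraries, and Rn7s2 had 275, 585 and 613 counts in (A/R) platelet and 286, 353 and 180 in untreated libraries. Their calls (log2 0.66 each, SE 0.20 and 0.21, edgeR adjusted p = 0.0278 and 0.0328) stand beside overlapping counts. Rpph1, the RNA of RNase P, had 18, 25 and 57 counts in (A/R) platelet and 4, 6 and 11 in untreated libraries (log2 1.97, SE 0.57, edgeR adjusted p = 0.0239). Its FPKM was 1.06, 1.11 and 2.65 in (A/R) platelet libraries and did not exceed 0.82 in any other. Rn7sk ranged between 4 and 319 counts within the (A/R) platelet libraries and was not called.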
